A study of Mus musculus with 24 samples.

Results

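The NMDA receptor subunit genes Grin1, Grin2a, Grin2b, Grin2d and Grin3a were followed in nuclei of the mouse lumbar spinal cord. They are 5 of the 32962 genes in the deposited count table, and were chosen by name. Each nucleus was profiled by Drop-seq, a droplet method in which every captured RNA molecule carries a unique molecular identifier (UMI), so that UMIs are counted in place of reads. The 24 samples were male and female mice of the outbred ICR/CD-1 strain, 8 to 11 weeks old: 9 control mice, 10 formalin mice and 5 rotarod mice. Formalin mice had 30 µl of 2% paraformaldehyde injected under the skin of the sole of both hindpaws, a painful stimulus. Rotarod mice walked on a turning rod that sped up from rest to 40 rotations per minute in 5 minutes, a motor task. The labels name an hour of habituation before either procedure. How long after the stimulus the cord was taken, and how control mice were handled, is not stated in these sources.

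NMDA receptors are ion channels opened by glutamate together with glycine or D-serine, and they pass calcium once depolarisation has lifted a block by magnesium. Every receptor holds the GluN1 subunit, made from Grin1, joined with GluN2 subunits and in some receptors with GluN3. The GluN2 subunit sets how long the current lasts and how strongly magnesium blocks the channel. GluN3A lowers both calcium entry and the magnesium block. In the dorsal horn of the spinal cord these receptors take part in the lasting increase of pain signalling that follows injury, and in the ventral horn they serve motor circuits.

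The deposited table held 18000 barcodes, 750 per mouse. The authors' annotation put 13425 nuclei in 7 classes, 7103 of them neurons, marked 3818 barcodes as discarded and left 757 without a label. Of the neurons, 4280 carried 1 of 43 population codes in 8 families, and 2823 carried none. A family code starting with D, M or V was taken to mean dorsal, mid or ventral, and a code ending in E or I excitatory or inhibitory neurons; VC and VM are used as codes only. Total UMIs per mouse ran from 640279 to 3243587 in control, from 549903 to 1707338 in formalin and from 660286 to 3209063 in rotarod mice. The median neuron held 2476.5, 1633 and 2335 UMIs in the 3 groups in that order. The libraries shared 19 barcode sequences, carried by 42 of the barcodes.

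The labels give the tissue as brain, whereas the lumbar spinal cord is named in the extraction protocol and the title. Among neurons, the lumbar gene Hoxa10 had 270 UMIs and Hoxd10 had 122, but Hoxc10 had 16. The forebrain gene Tbr1 had 6 UMIs, and Neurod2 had 111. Formalin samples 1 to 5 each resembled samples 6 to 10 in order. The deviations of the paired samples from their group mean over 6594 genes correlated at 0.347, 0.189, 0.184, 0.144 and 0.383, and each was the closest formalin sample to its partner. All other formalin pairs averaged -0.149, with a highest value of 0.0663. The labels do not say what these pairs share, nor whether paired samples come from separate mice. Each formalin sample is counted as 1 mouse here. The fits and shares in all neurons were therefore repeated with each pair merged into 1 sample. The comparisons within families and glial classes were not.

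The 5 genes had 54218 UMIs in all, of which 46311 were in neurons, and neurons held 92.2% of the members' UMIs among classified nuclei. In neurons of the 9 control mice, the mean level in CPM (UMIs of the gene per 1000000 UMIs) was 586 ± 82.2 (SD, n = 9) for Grin1, 572 ± 69.7 for Grin2a, 491 ± 56.1 for Grin2b, 341 ± 72.0 for Grin3a and 60.6 ± 14.9 for Grin2d. Their sum was 2051 ± 123 CPM. Levels of different genes may not compare directly, since a nucleus holds unspliced RNA and a longer gene can offer more places for capture. No source used here gives whether intron reads were counted, so values per length are given beside the CPM.

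On GRCm38, with the GENCODE M21 annotation, all 5 genes lie on the minus strand. Grin1 covers 28.0 kb of chromosome 2, from 25291181 to 25319187. Grin2a covers 428 kb of chromosome 16, from 9567898 to 9995560, and Grin2b 460.3 kb of chromosome 6, from 135713233 to 136173511. Grin2d covers 46.5 kb of chromosome 7, from 45831883 to 45878378, and Grin3a 184 kb of chromosome 4, from 49661611 to 49845744. Per kb of gene span, control neurons held 20.9 CPM of Grin1 against 1.34 of Grin2a, 1.07 of Grin2b, 1.30 of Grin2d and 1.85 of Grin3a. Per kb of exon the values were 60.4, 31.9, 19.8, 9.10 and 27.8 CPM in the same order. Grin1, the subunit that every receptor needs, was the highest on both scales, while the order of the other 4 depended on the scale. Without a length scale Grin1 and Grin2a lay close, at 586 and 572 CPM. Which scale suits these counts was not tested. The counts have no stated strand, and Kdelr1 overlaps the start of Grin2d on the other strand at 27.0 CPM in neurons. The antisense gene Grin1os was at 5.26 CPM, and no other overlapping gene passed 2.34 CPM.

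Detection was compared after each nucleus had been thinned to 1000 UMIs, which kept 5997 neurons and left out 1106 shallower ones. Grin1 had at least 1 UMI in 43.9% of them (95% Wilson interval 42.6 to 45.1, counting error only), Grin2a in 38.7%, Grin2b in 35.9%, Grin3a in 27.3% and Grin2d in 5.74%. Without thinning the shares were 67.1%, 58.6%, 60.3%, 43.8% and 14.0%, at a median of 2214 UMIs. Any of the 5 was seen in 84.7% of thinned neurons, Grin1 together with a Grin2 gene in 27.4%, and Grin2a together with Grin2b in 14.0%. Oligodendrocytes, which should hold little of these genes, gave 6.71% for Grin1, 12.0% for Grin2a, 9.14% for Grin2b, 8.13% for Grin3a and 1.09% for Grin2d among 1193 thinned nuclei, from a median depth of 1092 UMIs. Every neuronal share lay above the oligodendrocyte share.

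Neurons held more of each tested subunit than most other classes. UMI counts of control mice were summed per mouse and class and compared with the edgeR quasi-likelihood test, blocking on the mouse. Grin2d did not pass the filter on low counts, so 4 of the 5 members were tested. A gene was called when its Benjamini-Hochberg adjusted p over all genes tested was below 0.05. The classes were defined by the authors on these nuclei, so the p-values do not count that choice. Against oligodendrocytes all 4 tested members were higher in neurons, where 54.9% of all genes were called: 7.75-fold for Grin1, 4.24-fold for Grin2a, 4.82-fold for Grin2b and 4.06-fold for Grin3a. All 4 were also higher than in meningeal or Schwann nuclei (59.7% of all genes called) and in endothelial or vascular nuclei (64.7% called).

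Astrocytes stood closer to neurons for Grin3a and Grin2b. There 49.2% of all genes were called, and all 4 members were higher in neurons, by 9.71-fold for Grin1, 5.67-fold for Grin2a, 3.12-fold for Grin2b and 1.66-fold for Grin3a (log2 fold change 0.73, SE 0.17, adjusted p 8.8e-05). Against oligodendrocyte precursors, with only 3 control mice, 17.5% of all genes were called. Grin1, Grin2a and Grin2b were higher in neurons, while Grin3a was not called (log2 fold change -0.08, SE 0.34, adjusted p 0.889). The median gene itself stood 1.30 higher in neurons on the log2 scale in that contrast. In control mice Grin3a was at 884 ± 444 CPM (SD, n = 3) in these precursors, from 26 UMIs in 39 nuclei. In formalin mice it was at 524 ± 127 CPM (n = 3). Pooled over all 183 precursor nuclei it was at 496 CPM (exact 95% Poisson interval 401 to 607, 94 UMIs).

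UMIs of 5 neuronal marker genes (Snap25, Syt1, Rbfox3, Meg3 and Snhg11) were also present in glial nuclei, at 6679.5 CPM in astrocytes and 38298 in neurons. The part of free RNA and of doublets in this was not tested, and each member was set against these markers in the same nuclei. In astrocytes, per neuronal-marker UMI, Grin3a was 3.64 times its value in neurons, and the ratio was above that of neurons in 23 of 23 mice. Grin2b was at 1.88 times, above neurons in 21 of 23 mice. By contrast Grin2a was at 0.964 times and Grin1 at 0.534 times in the same astrocytes. In oligodendrocyte precursors Grin3a was at 3.18 times, above neurons in 6 of 6 mice, and Grin2b at 1.06 times. Oligodendrocytes gave 0.678 for Grin1, 1.17 for Grin2a, 1.07 for Grin2b and 1.33 for Grin3a. Grin2c, a subunit gene that was not among the members, was at 97.8 CPM in astrocytes and 4.18 CPM in neurons. Thinned to 1000 UMIs, 19.3% of astrocytes had a Grin3a UMI and 15.9% a Grin2b UMI, against 8.13% and 9.14% of oligodendrocytes.

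**Figure D1:**
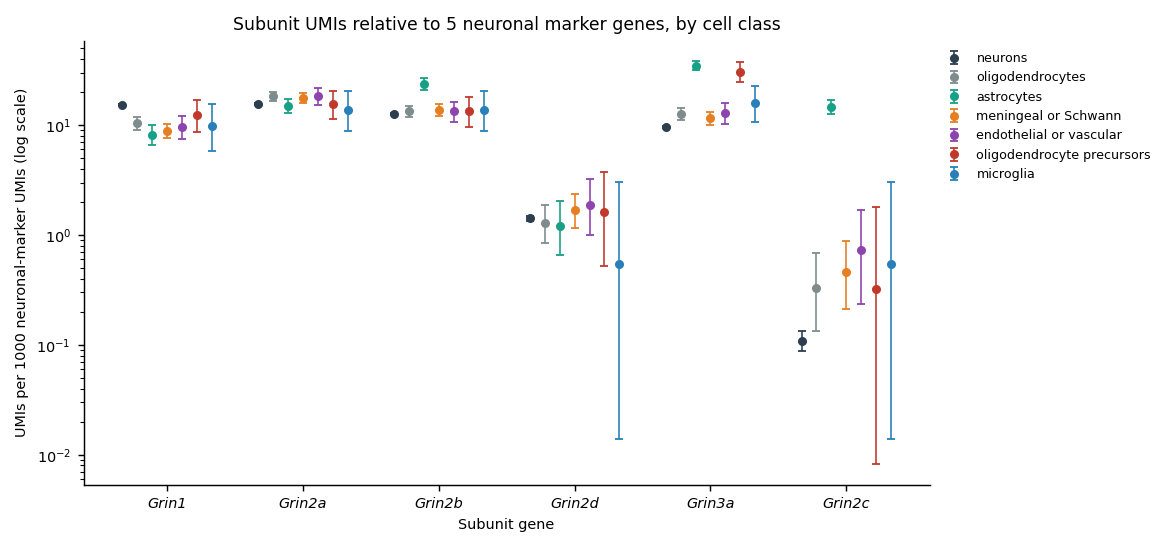
UMIs of each subunit gene per 1000 UMIs of 5 neuronal marker genes (y axis, log scale) in 7 cell classes (colours), nuclei of all mice pooled; bars are exact 95% Poisson intervals of the subunit's count. Grin3a in astrocytes (34.7) and oligodendrocyte precursors (30.4) and Grin2c in astrocytes (14.6) stand above neurons (9.55 and 0.109), while Grin1 is highest in neurons (15.3).

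Neuron families differed in 3 of the subunit genes. Grin2a and Grin2b were higher in the dorsal than in the ventral families, and Grin3a was higher in excitatory than in inhibitory families over the 3 pairs of families together, with DE far above DI but VE near VI. Neither contrast called Grin1. Family sums of the 9 control mice entered a fit that blocked on mouse, took mice with at least 5 nuclei of a family and gave each family equal weight. Grin2d again did not pass the filter. Families too were defined by the authors on these nuclei.

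Grin1 had mean levels between 500.2 ± 103 CPM (SD, n = 9) in MI and 617 ± 130.4 (n = 8) in VI. The order from high to low was VI, VE, DI, ME, VM, DE, VC and MI. The dorsal-to-ventral log2 fold change was 0.05 (SE 0.09, edgeR adjusted p 0.699) and the excitatory-to-inhibitory one -0.03 (SE 0.09, adjusted p 0.895).

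Grin2a, whose subunit gives short-lived currents and increases as circuits mature, was highest in the dorsal families. The 9 control mice had a lowest, median and highest value of 652, 822 and 1031 CPM in DE and of 543, 662 and 947 CPM in DI. In VE the 8 mice had 192, 424 and 637 CPM, and in VI 291, 477 and 520.1. No DE value fell as low as the highest VE or VI value. The order of the means was DE 836, DI 698, VM 608, VC 505, MI 439.9, VI 431, VE 427 and ME 363. Grin2a was 1.64-fold higher in dorsal families (log2 fold change 0.72, SE 0.10, edgeR adjusted p 7.9e-10), in a contrast where 29.7% of all genes were called. Of the 4 tested members 2 were called there, Grin2a and Grin2b. Both span over 200 kb, and 45.6% of all genes of that span were called. Its excitatory-to-inhibitory log2 fold change was 0.03 (SE 0.11, adjusted p 0.925).

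Grin2b, whose subunit gives longer currents and binds the kinase CaMKII, had a lowest, median and highest value of 456, 688 and 1067 CPM in DE. In DI these were 424, 504 and 592 CPM, in VE 377, 469 and 624, and in VI 288, 378 and 451. DE and VI did not overlap, whereas DI and VE did. The means fell from 707 in DE through DI 515, VE 483, MI 471, ME 469, VC 417 and VM 415 to VI 378. Grin2b was 1.48-fold higher in dorsal families (log2 fold change 0.56, SE 0.09, edgeR adjusted p 3.7e-08). It was also called between excitatory and inhibitory families, at 1.21-fold (log2 fold change 0.27, SE 0.09, adjusted p 0.0444). That call was lost when control mouse 1, 2, 4, 7, 8 or 9 was left out (adjusted p 0.0555 to 0.134), and without the filter on low counts (0.20, adjusted p 0.661), with at least 10 nuclei per mouse and family (0.20, 0.677), without the 3 cx control mice, named for the end of their titles, (0.20, 0.525) and without the mouse block (0.26, 0.129).

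Grin2d, whose subunit gives the longest currents and a weak magnesium block, stayed low everywhere. Its mean ran from 40.9 ± 36.8 CPM (SD, n = 7) in ME to 74.2 ± 39.3 (n = 9) in MI, and the order was MI, DI, DE, VI, VM, VC, VE and ME. It had 9 to 100 UMIs per family over all control mice.

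Grin3a separated the dorsal excitatory from the dorsal inhibitory family. The 9 control mice had a lowest, median and highest value of 457, 579.8 and 905 CPM in DE and of 91.5, 203 and 328 CPM in DI, without overlap. The means were DE 612, ME 600.3, VM 372, VC 343, MI 324, VI 279, VE 266 and DI 205. ME rested on 51 nuclei, and its mice spread from 82.3 to 1716 CPM. Between excitatory and inhibitory families, where 8.79% of all genes were called, Grin3a was 1.60-fold higher (log2 fold change 0.68, SE 0.12, edgeR adjusted p 5.7e-06), and 2 of the 4 tested members were called. Dorsal against ventral, it missed the threshold (0.27, SE 0.11, adjusted p 0.0503). DE was compared directly with DI in a contrast added after the data had been seen: 13.5% of all genes were called, and Grin3a was 2.89-fold higher in DE (1.53, SE 0.16, adjusted p 8.5e-14). Grin2b was 1.34-fold higher there (0.42, SE 0.12, adjusted p 0.00924), and Grin1 and Grin2a were not called. VE against VI, also added after the data had been seen, called 1.40% of all genes and 0 of the 4 tested members. Grin3a was at 266 CPM in VE and 279 in VI (log2 fold change -0.06, SE 0.18, adjusted p 0.957). Whether the dorsal and the ventral difference differ was not tested. Among nuclei thinned to 1000 UMIs, 41.0% of DE and 19.4% of DI nuclei had a Grin3a UMI. Unthinned, the shares were 58.2% and 36.4%, at median depths of 2188 and 2528 UMIs.

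**Figure D2:**
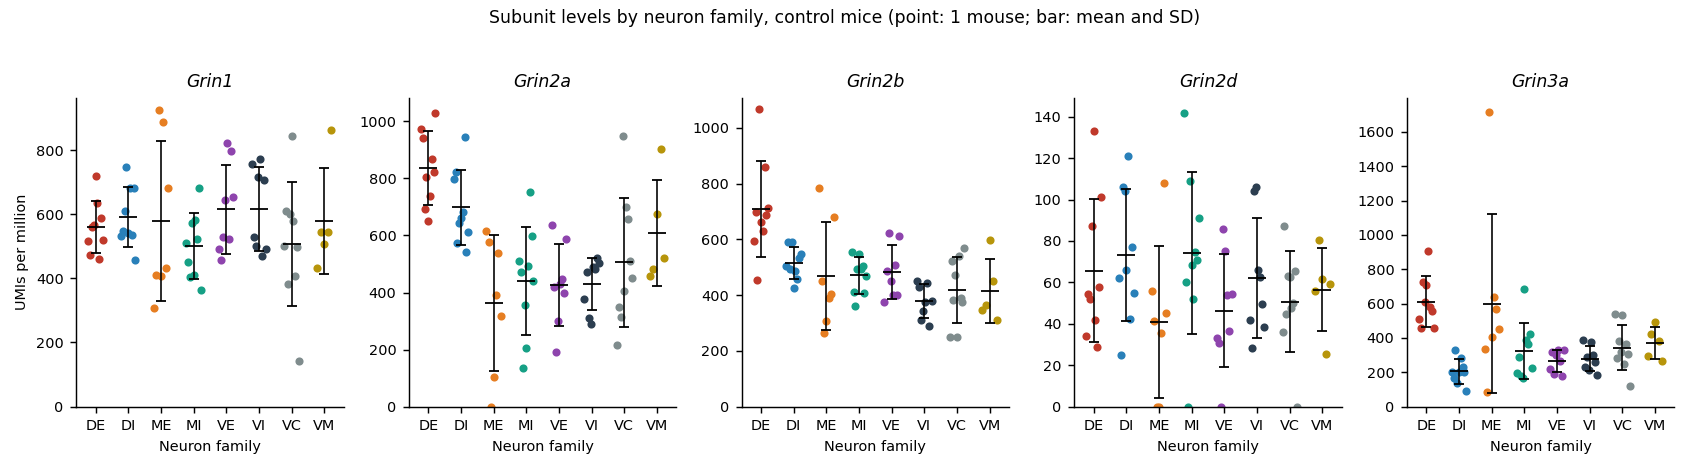
Level of each subunit gene in CPM (y axes, separate scales from 0) in the 8 neuron families (x axis) of control mice; each point is 1 mouse, the long tick the mean and the bars the SD. By family mean, Grin2a and Grin2b are highest in DE, and Grin3a is high in DE (612) and low in DI (205). The family means of Grin1 lie between 500.2 and 617, and its single mice between 142 (VC) and 924 (ME).

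Each family was then set against the other 7. In DE, where 24.3% of all genes were called, Grin2a, Grin2b and Grin3a were higher (log2 fold changes 0.80, 0.67 and 1.01). In DI, with 17.5% of genes called, Grin2a was higher (0.51) and Grin3a lower (-0.74), while Grin2b was not called (0.19, edgeR adjusted p 0.212). In VI, with 19.5% called, Grin2b was lower (-0.40, adjusted p 0.00593), as was Grin2a (-0.35, adjusted p 0.0420). The Grin2a call in VI was lost without control mouse 1, 2, 6, 7 or 8 (adjusted p up to 0.172). In VE, with 14.4% called, Grin3a was lower (-0.41, adjusted p 0.0373), and that call was lost without control mouse 1, 3, 5, 6, 7 or 8 (adjusted p up to 0.237). No tested member was called in VC (13.4% of genes called), ME (3.61%), MI (3.09%) or VM (0.130%). Neighbouring families in the order of levels were compared by two-sided exact sign-flip permutation over mice, and of 35 pairs 0 had an adjusted p below 0.05. The smallest p that 9 mice allow, 0.00391, cannot pass that adjustment for a single pair, so these tests do not show that neighbours were alike. The lowest p was that of DE against DI for Grin2b (193 CPM higher in DE, higher in 8 of 9 mice, exact p 0.00781, adjusted p 0.273), a pair that the edgeR fit across all genes called.

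The share of each subunit in the members' summed UMIs does not depend on how a library is scaled. In control mice Grin1 made up 23.4% ± 2.71 (SD, n = 9) of the sum in dorsal and 32.0% ± 3.96 in ventral families, and it was lower on the dorsal side in all 9 mice (difference of -8.60 percentage points, two-sided exact sign-flip permutation p 0.00391, adjusted p 0.0130). Grin2a made up 31.5% of the dorsal and 26.0% of the ventral sum (5.47 points, higher in 8 of 9 mice, exact p 0.0117, adjusted p 0.0293). The Grin1 level had a dorsal-to-ventral log2 fold change of 0.05, and the summed level was 2780.2 ± 195 CPM in DE against 1768 to 2084 in the other families. Between excitatory and inhibitory families the Grin1 share was 24.4% against 30.6% (-6.17 points, lower in 9 of 9 mice, exact p 0.00391, adjusted p 0.0130), and the Grin3a share was 20.2% against 12.9% (7.23 points, higher in 9 of 9 mice, exact p 0.00391, adjusted p 0.0130). By family the Grin3a share was 22% in DE against 9.76% in DI, but 14.4% in VE against 15.7% in VI. Adjustment was over the 5 subunits and 2 contrasts. Thinning to 500 UMIs left 8 mice, in which the dorsal differences were -7.73 points for Grin1 (permutation, adjusted p 0.104) and 1.71 points for Grin2a (adjusted p 0.547), and neither passed the threshold. Without the cx mice the smallest p that the 6 others allow is 0.0312, and no share passed after adjustment. With all 24 mice the dorsal Grin2a difference was 6.43 points (permutation, adjusted p 1.2e-04). Passing only with all 24 mice were Grin2b, whose share was 2.01 points higher in dorsal families (adjusted p 0.0147, higher in 19 mice), and Grin2d, whose excitatory-to-inhibitory difference was -1.41 points (adjusted p 1.2e-04, higher in 5 mice). In the 9 control mice the Grin2d difference was -1.27 points (exact p 0.0312, adjusted p 0.0625).

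AMPA receptors carry the fast part of the glutamate response, and Gria1 to Gria4 encode their subunits. The log2 ratio of summed NMDA to summed AMPA subunit UMIs was -0.891 ± 0.143 (SD, n = 9) in dorsal and -1.26 ± 0.203 in ventral families, higher on the dorsal side in 9 of 9 mice (difference 0.366, exact p 0.00391, adjusted p 0.00391). In excitatory families it was 0.436 higher than in inhibitory families (9 of 9 mice, exact p 0.00391, adjusted p 0.00391). The value of 0.00391 is the smallest that 9 mice allow. By family, DE stood highest at -0.557 ± 0.196 (n = 9), followed by ME at -0.750. DI, at -1.29, lay below VI (-1.25), VC (-1.22) and VM (-1.06), and VE, at -1.42, lay below VI. Neither direction therefore held for every family.

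Single populations differed far more than families. Populations were defined by clustering these nuclei, so their levels are described without a test, with UMIs pooled over mice and exact 95% Poisson intervals for counting error only. Grin2a ran from 76.5 CPM in DE-1 (14 UMIs, interval 41.8 to 128) to 2333 CPM in DE-9 (662 UMIs, interval 2159 to 2518), a 30.5-fold range. Grin3a ran from 61.9 CPM in DI-3 (interval 38.8 to 93.7) to 1554 CPM in DE-2 (interval 1378 to 1747), a 25.1-fold range. Grin2b spanned 5.50-fold, from 231 CPM in DE-8 to 1270.5 in DE-3, and Grin1 3.88-fold, from 246 in DE-3 to 955 in VI-1. The coefficient of variation over the 43 populations was 73.3% for Grin2a, 74.5% for Grin3a, 42.6% for Grin2b and 22.4% for Grin1. Grin2d was highest in DI-2 at 172 CPM (22 UMIs, interval 108 to 261), and in DE-3 it had 0 of 73201 UMIs, which allows up to 41.0 CPM.

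The dorsal excitatory populations differed in which genes were high for that gene among the 43 populations. DE-1 and DE-2 were high in Grin3a, at 1372 and 1554 CPM, and low in Grin2a, at 76.5 and 149 CPM. DE-3 and DE-5 were highest in Grin2b, at 1270.5 and 1212 CPM, with 587 and 540.2 of Grin3a and 342 and 761 of Grin2a. DE-9 and DE-10 were high in Grin2a, at 2333 and 1566 CPM. Grin3a was low in DE-10, at 191 CPM, but at 465 CPM in DE-9, above the median of 335 over all 43 populations. DE-4, DE-6 and DE-7 had much of both: Grin2a was at 1680.3, 1209.7 and 1849 CPM, and Grin3a at 845, 1175 and 887 CPM. In the mice with at least 5 nuclei of the population, Grin2a averaged 2254 ± 696 CPM (SD, n = 12) in DE-9 and 218 ± 261 (n = 7) in DE-2. Grin3a averaged 1606 ± 481 CPM (n = 7) in DE-2 and 193 ± 103 (n = 10) in DE-10. DE-7 had the highest summed level of the 5 genes, 4135 CPM, and DI-3 the lowest, 1454 CPM.

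In the dorsal inhibitory populations Grin3a lay between 61.9 CPM in DI-3 and 361 in DI-9, with a median of 203, beside a median of 335 over all 43. DI-5, DI-8 and DI-9 were above that, at 352, 353 and 361. Grin2a differed more widely. DI-2, DI-3 and DI-4 had 141, 174 and 185 CPM of Grin2a, whereas DI-7 had 1497 CPM (interval 1359.9 to 1645). Grin2b ran against it in the same populations, at 752, 633 and 823 CPM in DI-2, DI-3 and DI-4 and 359 CPM in DI-7. Of the UMIs of Grin2a and Grin2b together, Grin2a held 15.8% in DI-2 (95% Wilson interval 10.2 to 23.6) and 80.7% in DI-7 (77.1 to 83.8). Over all populations this share ran from 8.00% in DE-1 (4.83 to 13) to 84.0% in DE-9 (81.3 to 86.4). DE-9 was also the population with the highest log2 ratio of NMDA to AMPA subunit UMIs, 0.167, and DI-3 had the lowest, -1.77.

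Outside the dorsal families Grin2a varied less among populations, with a coefficient of variation of up to 49.9% (VC) against 77.1% in DE and 67.4% in DI. In the 4 VE populations Grin2a ran from 259 to 543 CPM and in the 5 VI populations from 445 to 564. VI-1 had the highest Grin1 level of all 43 populations, 955 CPM (interval 869.8 to 1046), and Grin1 made up 44.8% of its subunit UMIs. Grin1 itself varied by 31.9% in VI and 42.9% in VC against 20.7% in DE and 21% in DI. VC-2 was low in Grin1, at 304 CPM, with 711 CPM of Grin2a and 514 of Grin3a.

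**Figure D3:**
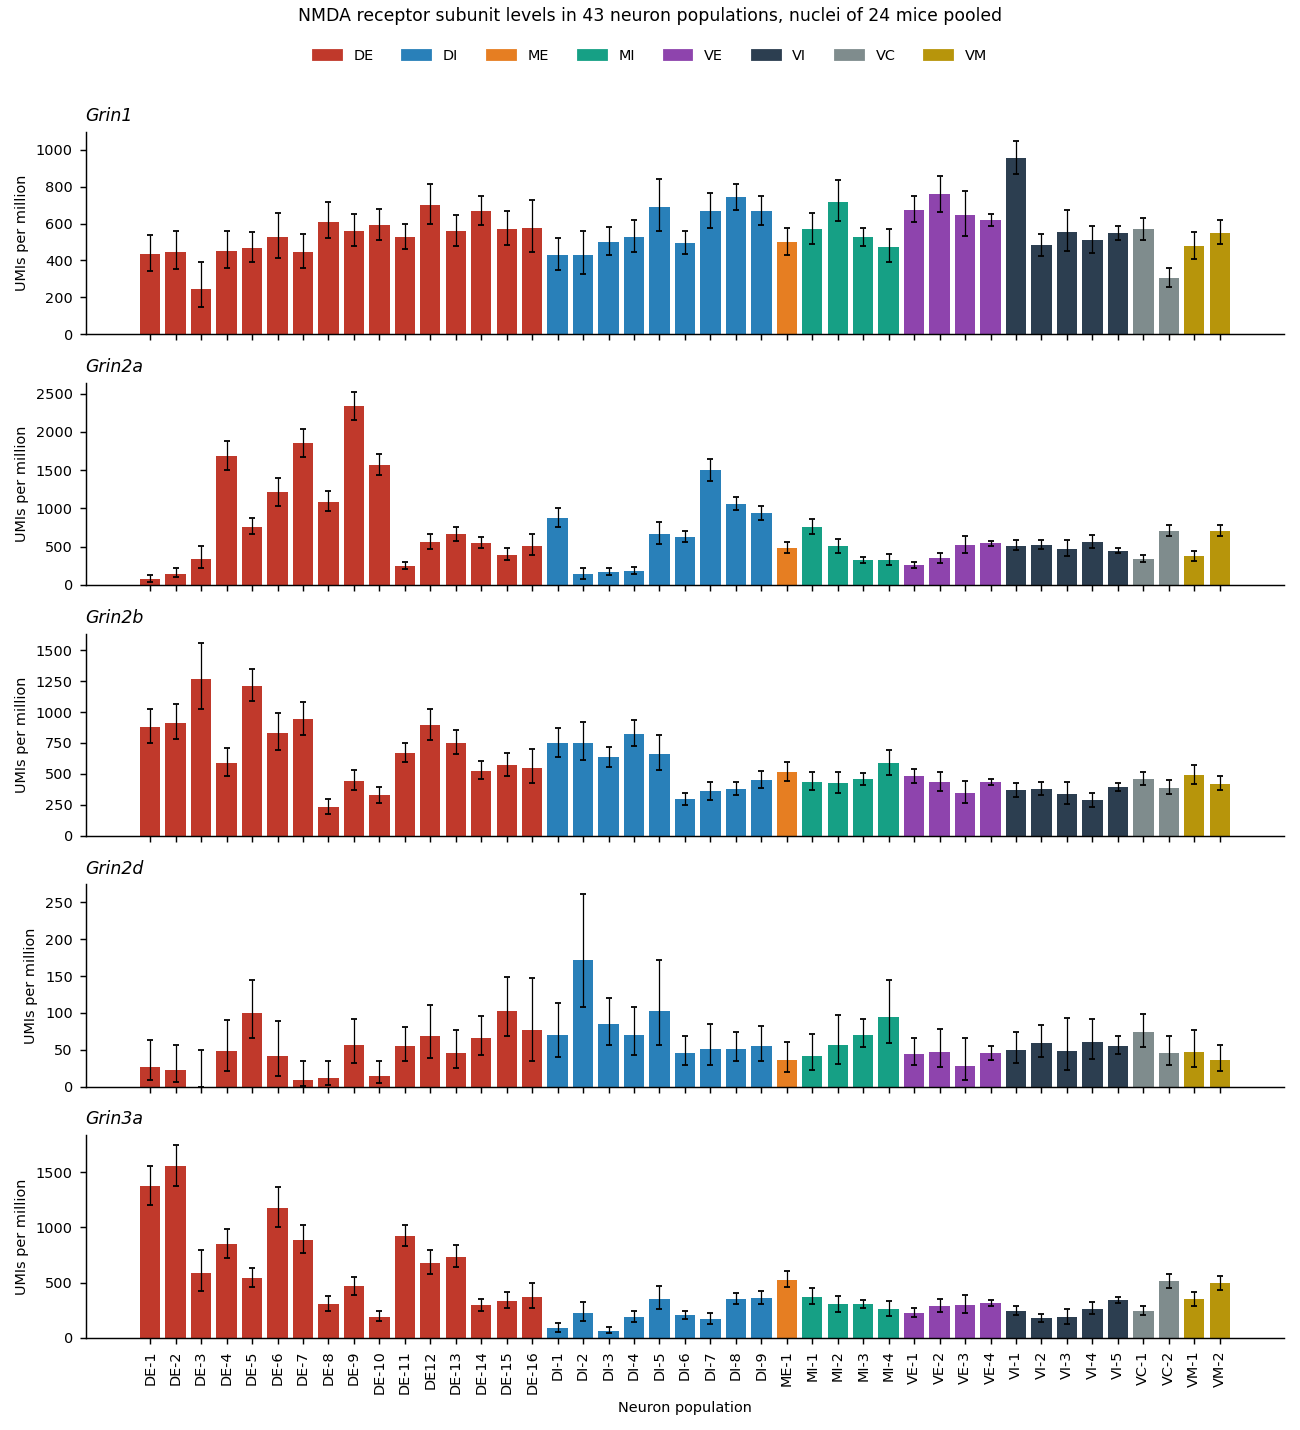
Level of each subunit gene in CPM (y axes, separate scales from 0) in 43 neuron populations (x axis), coloured by family, nuclei of all 24 mice pooled; error bars are exact 95% Poisson intervals. Grin2a peaks in DE-9 (2333) and DI-7 (1497), Grin3a in DE-2 (1554), and Grin1 varies least.

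Across the 43 populations, which share libraries, the subunits did not move as a block. On the log2(CPM + 10) scale, Grin2b correlated with Grin3a at Pearson's r of 0.454 (Spearman's rho 0.502) and with Grin1 at -0.441 (rho -0.421). Grin2a and Grin3a had r of 0.0206 over all 43 populations and of -0.417 over the 16 DE populations. The level of Grin2b also correlated with the log2 median UMIs per nucleus (r of -0.488), as did the sum of the 5 genes (-0.436). For Grin1, Grin2a, Grin2d and Grin3a these correlations with depth were 0.208, -0.0283, -0.0142 and -0.202. The part of depth in the correlation between Grin2b and the other subunits was not tested.

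The 3 genes whose population pattern was most like each subunit were sought among 3282 genes that averaged 50 CPM or more. For Grin2a they were Gabra5, a GABA-A receptor subunit (r 0.678), Pdzd2 (0.673) and Mical2 (0.672). For Grin3a they were the ubiquitin ligase gene Nedd4l (0.733), Ptprn2 (0.727) and the calcium channel subunit gene Cacna2d1 (0.711). For Grin2b they were Ftx (0.787), Tmcc3 (0.784) and Ankrd12 (0.770), and for Grin1 Epha10 (0.743), Vwa5b2 (0.721) and the spectrin gene Sptbn4 (0.720). Grin2d was most like Chd9 (0.746), the potassium channel gene Kcnma1 (0.738) and Clpp (0.691). Each is a correlation over 43 populations and a description.

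The study's groups were compared to ask whether the subunits differ in neurons after pain or motor activity. Neither formalin nor rotarod mice had a called change from control mice in any of the 5 genes. Grin2a was called between the stimulated groups, higher in rotarod mice, but that call was lost with the formalin pairs merged. Fits ran over all 3 groups in edgeR with the sum of neuronal UMIs per mouse, and 9103 genes were tested, all 5 members among them. Nothing in the labels says that samples of a group are independent beyond being separate samples, so p-values measure the spread between these samples.

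For Grin1 the 9 control mice had a lowest, median and highest level of 494, 571 and 679.6 CPM in neurons, and the 10 formalin mice of 527, 675 and 755. The 5 rotarod mice, in replicate order, had 422, 579.6, 333, 542 and 587 CPM. Rotarod mice 1 and 3 lay below every other mouse, and the rest overlapped. For Grin2a the control mice had 449, 599 and 640.5 CPM and the formalin mice 418, 566 and 634. The rotarod mice had 746, 728, 689, 609.9 and 637 CPM. Of the rotarod values, those of mice 1, 2 and 3 were above every control and formalin mouse, and those of mice 4 and 5 lay within the range of the control mice.

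Grin2b had 396, 487 and 599 CPM in control mice, 407, 458 and 559 in formalin mice, and 499, 559.6, 520.4, 456 and 506 in the rotarod mice, so the groups overlapped. Grin2d had 48.6, 53.5 and 95.6 CPM in control mice and 49.4, 66.9 and 80.8 in formalin mice. Its rotarod values were 41.1, 45.5, 59.2, 40.3 and 48.8 CPM, and only mouse 3 was above the lowest formalin mouse. Grin3a had 229, 336 and 441 CPM in control mice, 306, 394 and 663 in formalin mice and 255, 435, 308, 397 and 338 in rotarod mice, so that the groups overlapped. The 10 formalin mice had a summed level of 2136 ± 131 CPM (SD) and the 5 rotarod mice of 2076 ± 171, beside 2051 ± 123 in control mice.

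Formalin against control called 0 of the 5 members, and 0% of all genes, with edgeR. Merging the formalin pairs also left 0 of each. Without adjustment 766 of the 9103 genes had p below 0.05, and DESeq2 called 2 genes. Log2 fold changes were 0.08 for Grin1 (SE 0.10), -0.13 for Grin2a (0.10), -0.15 for Grin2b (0.09), 0.04 for Grin2d (0.13) and 0.20 for Grin3a (0.12). Rotarod against control likewise called 0 members and 0% of all genes, with 782 genes at an unadjusted p below 0.05 and 15 called by DESeq2. The log2 fold changes were -0.19 for Grin1 (SE 0.12), 0.28 for Grin2a (0.11, adjusted p 0.454), 0.09 for Grin2b (0.11), -0.31 for Grin2d (0.16) and 0.08 for Grin3a (0.14).

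Formalin against rotarod called 196 genes, 2.15% of those tested, and 1 of the 5 members. In formalin mice Grin2a was lower (edgeR log2 fold change -0.41, SE 0.11, adjusted p 0.0421), so its level in rotarod mice was 1.33 times that in formalin mice. The other 4 were not called, at 0.27 for Grin1 (SE 0.12, adjusted p 0.209), -0.23 for Grin2b (0.10, 0.224), 0.35 for Grin2d (0.16, 0.239) and 0.12 for Grin3a (0.14, 0.704). The Grin2a call was near the threshold. It was lost in 11 of 24 refits that left out 1 mouse (formalin mouse 2, 3, 4, 7, 8 or 9, or any of the 5 rotarod mice; adjusted p 0.0510 to 0.117). With formalin samples 1 to 5 merged with samples 6 to 10 it was -0.42 at an adjusted p of 0.141, and among neurons with a population code -0.32 at 0.167. With neurons thinned to 500 UMIs it was -0.34 at 0.259. DESeq2 kept the call (adjusted p 0.0233). Some marker lists ran higher in the neurons of formalin than of rotarod mice, without a test. The summed neuronal markers ran from 36838 to 43505 CPM in the neurons of formalin and from 27599 to 38166 in those of rotarod mice. Markers of oligodendrocyte precursors ran from 17.0 to 61.1 against 6.23 to 26.4 CPM, of Schwann cells from 40.3 to 207 against 33.5 to 92.6, and of endothelium from 12.6 to 66.4 against 2.57 to 30.0. Other lists lay closer, with oligodendrocyte markers from 595 to 1876 against 693 to 2249.5 CPM and microglial ones from 53.4 to 109 against 53.0 to 82.2. All of these ranges overlapped, and their part in the Grin2a difference was not tested.

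**Figure D4:**
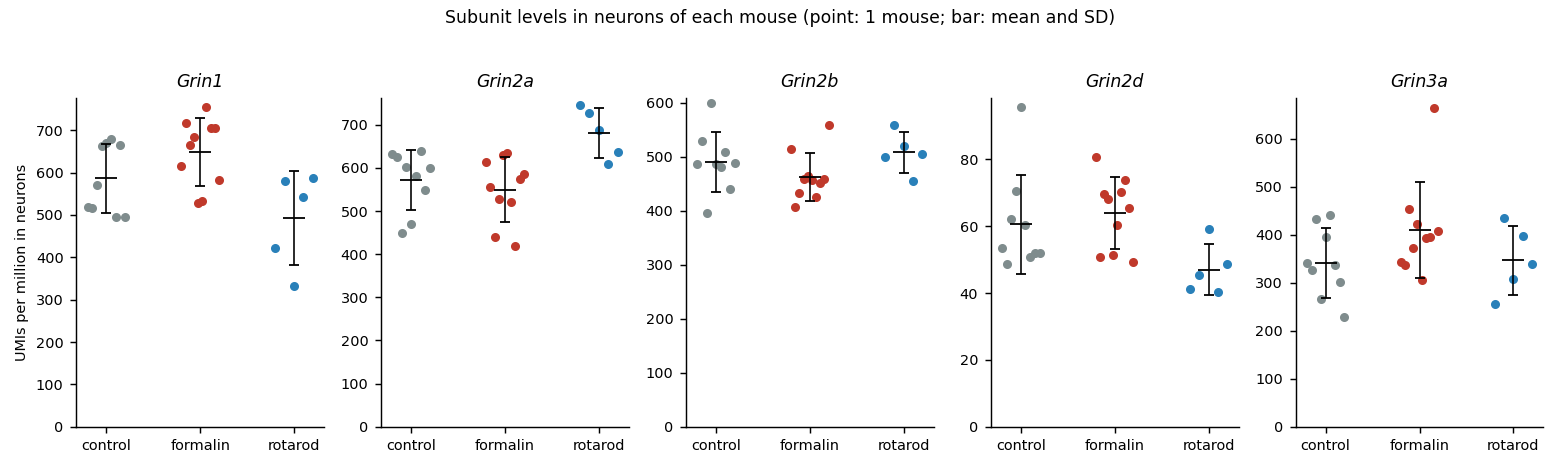
Level of each subunit gene in CPM in the neurons of each mouse (y axes, separate scales from 0) by group (x axis); each point is 1 mouse, the long tick the mean and the bars the SD. The 5 rotarod mice lie between 609.9 and 746 for Grin2a and overlap the control and formalin mice, which reach 640.5 and 634.

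Gene length moved with this contrast. Across the 8949 tested genes with a known span, 98.3% of those tested, the log2 fold change of formalin against rotarod correlated with log2 gene span at r of -0.446, a correlation across genes, which are not independent. Genes spanning over 200 kb, such as Grin2a and Grin2b, had a median of -0.22 (5th to 95th percentile -0.57 to 0.13), and among them 79 were called lower, 0 higher and 8.40% called in all. Genes under 20 kb had a median of 0.24. Genes of 20 to 50 kb, where Grin1 and Grin2d lie, had a median of 0.07. The correlation was 0.349 for rotarod against control and -0.227 for formalin against control. Genes over 100 kb held 53.7% to 56.9% of neuronal UMIs in the rotarod mice, 49.4% to 55.5% in formalin and 51.6% to 55.5% in control mice. The part of gene length in the Grin2a difference was not tested. Over the family contrasts in control mice the correlation with span was weaker, 0.0510 dorsal against ventral, 0.164 excitatory against inhibitory and 0.102 for DE against DI. Long genes were still called more often there. Of genes over 200 kb, 45.6% were called dorsal against ventral (213 higher and 143 lower), against 17.3% of those of 20 to 50 kb. The shares were 17.1% and 5.36% excitatory against inhibitory, and 30.4% and 3.93% for DE against DI. The part of gene length in the family differences was not tested.

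**Figure D5:**
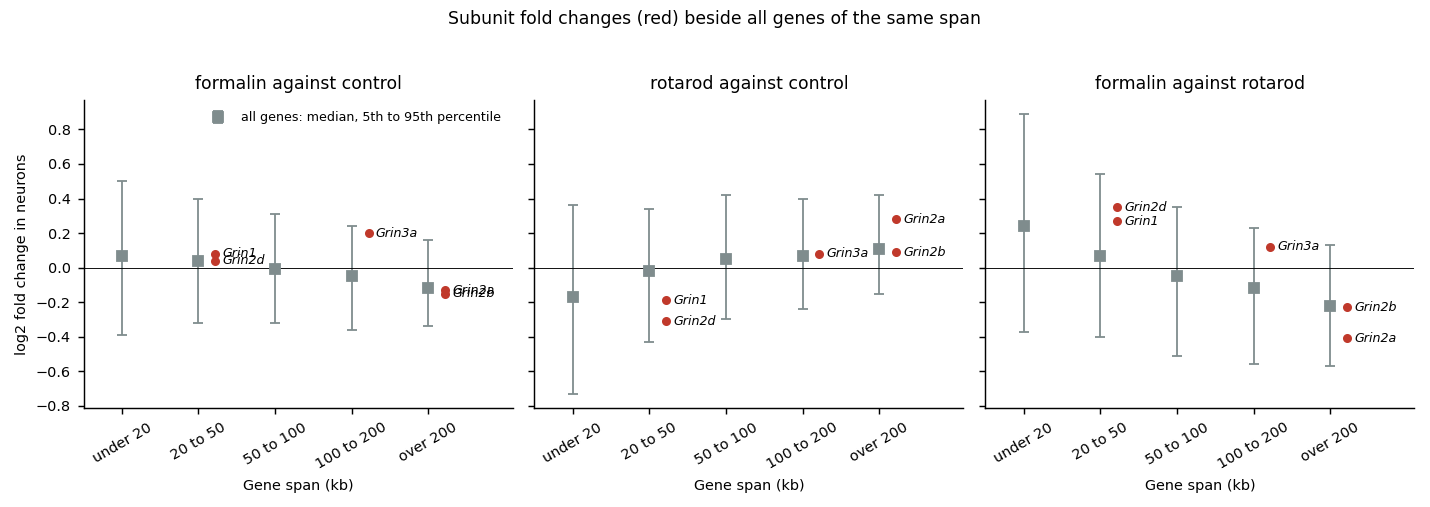
Log2 fold change in neurons (y axis) by gene span in kb (x axis, 5 bins) for the 3 group comparisons; grey squares are the median of all tested genes with bars from the 5th to the 95th percentile, and red points the 5 subunit genes. In formalin against rotarod the medians run from 0.24 under 20 kb to -0.22 over 200 kb, and Grin2a (-0.41) lies inside the range of genes over 200 kb.

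The mix of families was described without a test, and its spreads overlapped between groups. No population code was carried by 1036 of 3118 control, 1183 of 2392 formalin and 604 of 1593 rotarod neurons. In those neurons Grin2a was at 506 ± 74.2, 435 ± 74.6 and 629 ± 88.9 CPM (mean and SD) in the same order, also without a test. Of the coded neurons, DE made up 31.9% ± 6.0 (SD, n = 9) in control mice, 39.1% ± 5.53 in the 10 formalin mice and 34.5% ± 4.84 in the 5 rotarod mice, and DE is the family with the highest mean Grin2a level in control mice. For Grin2a itself, the log2 fold change of formalin against rotarod was 0.07 within DE, -0.47 in DI, -0.26 in MI, -0.46 in VE, -0.29 in VI and 0.13 in VC. Within families no tested member was called in any of the 3 comparisons. Formalin against control, rotarod against control and formalin against rotarod called, in that order, 0%, 0% and 0% of all genes in DE, 0%, 0% and 0.170% in DI, 0%, 0.0549% and 0% in MI, 0.102%, 0% and 0% in VE, 0%, 0% and 0% in VI and 0%, 0% and 0% in VC. All 5 members were tested in DE and VI, and 4 in each of DI, MI, VE and VC. ME and VM had too few mice. In the 7 populations with at least 3 mice in each group, the mean Grin2a level was higher in rotarod than in formalin mice in 6, and the mean Grin1 level was higher in 1. These populations came from the same mice and are not replicates, and the count was not made over all genes. The widest Grin2a gap was in DI-8, at 1394 ± 454 CPM (n = 3) in rotarod, 929 ± 296 (n = 5) in formalin and 879 ± 205 (n = 6) in control mice. MI-3 went the other way, at 299 ± 59.2 CPM (n = 4) in rotarod and 304 ± 135 (n = 7) in formalin mice.

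The shares of Grin1 and Grin2a differed in the same directions as their levels. Of the members' UMIs in neurons, Grin2a made up 28.0% ± 3.62 (SD, n = 9) in control mice, 25.8% ± 3.69 in the 10 formalin mice and 33.0% ± 3.77 in the 5 rotarod mice. Grin1 made up 28.5% ± 3.15, 30.4% ± 3.74 and 23.6% ± 4.15. Formalin against rotarod, the Grin1 share was 6.85 points higher (two-sided exact permutation p 0.00666) and the Grin2a share differed by -7.19 points (p 0.00466), both at an adjusted p of 0.04995 over 5 subunits and 3 comparisons. The groups overlapped for both. Both differences missed the threshold among neurons with a population code and with the formalin pairs merged. Neither share differed from control mice beyond the threshold, with a Grin1 difference of -4.95 points (adjusted p 0.07592) and a Grin2a difference of 5.03 points (adjusted p 0.07867) for rotarod. The log2 ratio of NMDA to AMPA subunit UMIs was -1.07 ± 0.122 in control, -1.09 ± 0.175 in formalin and -0.966 ± 0.114 in rotarod mice, and no pair of groups differed past the threshold (exact permutation, adjusted p 0.7484, 0.2512 and 0.2512 for formalin against control, rotarod against control and formalin against rotarod).

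Outside neurons no tested member was called between groups. For formalin against control, rotarod against control and formalin against rotarod, oligodendrocytes had 0%, 0.0317% and 0.475% of all genes called with 4 members tested. Astrocytes had 0%, 0.388% and 1.33% with Grin2b and Grin3a tested, and meningeal or Schwann nuclei 0%, 0.0917% and 0.0611% with 4 tested. Grin3a in astrocytes, where it was highest relative to neuronal markers, was not called in formalin against rotarod mice (log2 fold change 0.58, SE 0.26, adjusted p 0.347).

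Genes that work beside the receptor were read from lists. Among the 13 postsynaptic scaffold genes, whose proteins anchor receptors at the synapse, 0 were called for either group against control. Dlgap2 was lower in formalin than in rotarod mice (log2 fold change -0.45, edgeR adjusted p 0.0430), 1 of the 13, where 2.15% of all genes were called. The list's median was -0.15, beside a median of 0.01 over all genes and of -0.22 over genes spanning more than 200 kb, of which 8.40% were called. The part of gene length in the values of these lists was not tested. With the formalin pairs merged only 4 genes were called in all, and the lists were not counted again. Of 22 tested kinase, phosphatase and calcium signalling genes, Prkce, a protein kinase C gene, was lower (-0.50, adjusted p 0.0184). Of 6 tested genes of co-agonist supply and partners, Ephb2, a receptor tyrosine kinase that binds the NMDA receptor, was lower (-0.58, adjusted p 0.0208). Grik4 and Grid1, a kainate and a delta receptor subunit, were lower among 7 (-0.51 and -0.48), and 0 of 4 AMPA subunits were called. In the rotarod comparison with control mice these lists had no called gene.

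Between dorsal and ventral families, where 29.7% of all genes were called, the scaffold list had 5 genes called higher in dorsal families and 0 lower of 10 tested, with a median log2 fold change of 0.32 beside -0.02 over all genes. Dlgap1 (0.88) and Dlgap2 (0.81) had the largest values of the 5. The kinase list had 10 higher and 3 lower of 19, including Camk2a, the kinase that GluN2B binds (1.81), the protein kinase C gene Prkca (1.29), Adcy8 (0.77) and, lower, Rasgrf2 (-0.97). Of 3 tested genes of co-agonist supply and partners, Neto1 was higher (0.65). Gria1 (0.87) and Gria2 (0.68) were higher and Gria4 lower (-0.34), and of 7 kainate and delta genes 1 was higher, Grik5 (0.38), and 2 lower, Grik4 (-0.67) and Grid1 (-0.27). Between excitatory and inhibitory families 8.79% of all genes were called, with a median of -0.06. The scaffold list had 1 gene higher in excitatory families, Dlg1 (0.61), and 1 lower, Dlgap1 (-0.50), the kinase list 4 higher, led by Rasgrf2 (0.70) and Dapk1 (0.53), and 1 lower, Adcy8 (-0.39), and the co-agonist list 0 of 3 called. Gria2 was higher (0.30) and Gria1 lower (-0.55). The kainate subunits Grik3 (-1.02) and Grik2 (-0.92) were lower and Grid1 (0.51) higher.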

How the data were processed

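The authors deposited UMI counts per gene and barcode, with a table of classes and populations. Genome builds mm10 and GRCm38 are given per the submitters' processing notes. The aligner, and the use of introns and strand in counting, were not given in the sources used here. Doublets were not called again. Counts were summed per mouse and class (at least 10 nuclei), family or population (at least 5), and levels are CPM of the same nuclei. edgeR 4.0.16 (quasi-likelihood, TMM, expression filter) in R 4.3.3 tested all genes with Benjamini-Hochberg adjustment at 0.05, and DESeq2 1.42.0 was the other tool. Only the edgeR fit of the 3 group comparisons in neurons was tested on simulated data. For shares and ratios an exact permutation test over mice was used, two-sided. The members, gene lists and comparisons were chosen with earlier results of these data known. Named were the 5 members, the 3 genes most like each, and up to 4 called genes per list and contrast by absolute log2 fold change. Alternatives changed the tool, scaling, low-count filter, nuclei minimum, depth, mice and blocks. Replicate numbers shared by formalin and rotarod samples did not pair them (correlations -0.100 to 0.0843). Python 3.11.15 with pandas 2.3.3, numpy 2.4.6, scipy 1.17.1 and matplotlib 3.10.9 was used. Some tissue marker genes are not reported here.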

Additional observations from a re-analysis of the deposited data

Results flagged for a closer look

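In 7 of 76 groups of 4 to 10 mice, 1 mouse stood apart from the rest by Dixon's test, where chance gives about 1 in 20. In neurons, control mouse 5 had the highest Grin2d level (95.6 CPM) and the highest Grin2d share (4.51% of the members' UMIs), and formalin mouse 9 the highest Grin3a level (663 CPM) and the highest sum of the 5 genes (2466 CPM). By family, control mouse 8 was high for Grin1 in VM (862 CPM), control mouse 3 for Grin3a in ME (1716 CPM) and control mouse 5 for Grin3a in MI (684 CPM). Barcodes that the authors marked as discarded, which entered no comparison, held 3593 UMIs of the 5 genes.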

How the results depend on the processing

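In neurons, formalin against rotarod, 1 member was called, and 0 without the filter on low counts, with nuclei thinned to 500 UMIs, among neurons with a population code, with formalin samples 1 to 5 merged with 6 to 10, with formalin samples 1 to 5 only, unpaired, and with the replicate block (Grin2a -0.38, adjusted p 0.136), where 31 genes were called in place of 196. Leaving out 1 mouse gave 0 to 1 members and 60 to 239 genes. Thinning left 9 genes, merging 4, population codes 92 and formalin samples 1 to 5 unpaired 45. Against control, no filter called 31 genes for formalin and 43 for rotarod. In the latter, DESeq2 called 15. For excitatory against inhibitory families 2 members were called, but 1 without the filter, with at least 10 nuclei, without the 3 cx mice and without the mouse block, and 1 to 2 leaving out 1 mouse. Shares called for formalin against rotarod, 2 in all, were 1 after thinning, 0 among coded neurons, 0 after merging and 0 to 4 leaving out 1 mouse; for formalin against control that range was 0 to 1. Dorsal against ventral, 2 shares became 0 after thinning, 0 without the cx mice (6 mice, smallest p 0.0312) and 1 to 3 leaving out 1 mouse; excitatory against inhibitory, 2 became 0 without the cx mice. The log2 NMDA to AMPA difference of formalin from control turned to 0.010 without the cx mice and ran from -0.066 to 0.001 leaving out 1 mouse. The cause was not tested. Grin2d, at 1208 UMIs in neurons, did not pass the low-count filter in the fits between families.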
